A study of Mus musculus with 6 samples.

Results

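Hemoglobin carries oxygen in red blood cells and is a tetramer of alpha and beta globin chains, each holding a heme. The adult mouse makes alpha chains from Hba-a1 and Hba-a2 and, in strains with the single haplotype, beta chains from Hbb-bs and Hbb-bt. Alas2 makes the first intermediate of heme in red cell precursors, and Slc4a1 encodes band 3, the chloride and bicarbonate exchanger of the red cell membrane. Young circulating red cells, the reticulocytes, still hold these transcripts after the nucleus is lost, so RNA of a whole muscle can include them. These 6 genes were chosen by symbol, through the GENCODE M21 annotation, and are 6 of the 54393 genes in the deposited table. All 6 passed the filter on low values, a mean of at least 10 normalized counts.

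RNA was sequenced from the tibialis anterior, the shin muscle that lifts the foot, of adult mice. The libraries were 3 wild-type (WT) muscles, titled C57 and numbered 1, 3 and 4, and 3 Dock3 KO muscles, numbered 1, 2 and 3, in which Dock3, an activator of the small GTPase Rac, is knocked out. The knockout allele, its strain and the sex of the mice are not given in the labels used here, nor whether blood was flushed from the muscles. The labels do not say whether the 3 muscles of a genotype came from separate animals, so the p-values measure the spread between these samples, which may be technical.

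No member differed between the genotypes past the threshold, and the values of WT and Dock3 KO overlapped for all 6 genes. Mean levels were 1.07 to 1.80 times as high in Dock3 KO as in WT. The library Dock3 KO 1 held the highest value of every member, 2.07 to 2.48 times the mean of Dock3 KO 2 and 3. WT 3 held the lowest value of every member. Some ratios among the globins did not overlap between the genotypes, while other ratios of members did. Hba-a1 stood lower relative to Hba-a2 in each Dock3 KO library than in each WT library. The alpha pair likewise stood lower relative to the beta pair. These ratios were computed after the values were seen and are given below as a description with no test. Of single genes, 16.2% had groups that did not overlap, and the share among ratios of other genes was not taken.

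The sequences of the globin pairs are shown first, because they bear on which gene a read is given to. Hba-a1 (ENSMUSG00000069919, chromosome 11, 32283511 to 32284465, plus strand) and Hba-a2 (ENSMUSG00000069917, chromosome 11, 32296489 to 32297298, plus strand) are neighbours in the alpha globin cluster. Their coding sequences of 429 bases differ at 1 position, C381T, counted from the A of the start codon with the Hba-a1 base first, and encode the same 142 amino acids. Bases 357 to 405 of each hold the difference, in capitals:
Hba-a1: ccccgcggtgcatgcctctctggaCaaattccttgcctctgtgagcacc
Hba-a2: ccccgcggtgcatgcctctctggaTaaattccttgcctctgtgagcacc

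Hbb-bs (ENSMUSG00000052305, chromosome 7, 103826534 to 103828096, minus strand) and Hbb-bt (ENSMUSG00000073940, chromosome 7, 103812524 to 103813996, minus strand) are the adult genes of the beta globin cluster. Their coding sequences of 444 bases also differ at 1 position, C417T, counted in the same way with the Hbb-bs base first, and encode the same 147 amino acids. Bases 393 to 441 hold the difference, in capitals:
Hbb-bs: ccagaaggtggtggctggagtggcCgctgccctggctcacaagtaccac
Hbb-bt: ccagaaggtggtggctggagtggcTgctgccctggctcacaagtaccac

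Most of the sequence that tells the members of a pair apart therefore lies outside the coding part. Of the 31-base stretches of the GENCODE M21 transcript, 28.6% (191 of 669) are found in no other gene's transcripts for Hba-a1 and 8.97% (47 of 524) for Hba-a2, which share the rest with each other and with the pseudogene Hba-ps4. The shares are 33.1% (198 of 598) for Hbb-bs and 40.6% (273 of 673) for Hbb-bt. Alas2 (ENSMUSG00000025270, chromosome X, 150547375 to 150570638, plus strand) overlaps Apex2 and Mir3620, and 84.4% of its stretches are its own. All 4515 stretches of Slc4a1 (ENSMUSG00000006574, chromosome 11, 102348824 to 102366203, minus strand) are its own. How reads that fit both genes of a pair were assigned is not given in the sources used here, so the level of a single globin is uncertain and the sum of a pair is less so.

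The promoters are shown as a description of the genes. Whether they bear on how the members varied across the libraries was not tested. RefSeq on GRCm38.p6 gives a start site for 5 of the 6 genes, Slc4a1 being the other. The 200 bases before the start are printed in the direction of transcription, with capitals on 4 short motifs searched on both strands. They are CACCC, the box bound by Klf1, with the CCAAT box, the TATA box as ATATAA, and the core bound by Gata1 as GATAA. The windows are Hba-a1 at chr11:32283472-32283671 (plus), Hbb-bs at chr7:103827929-103828128 (minus), Hbb-bt at chr7:103813924-103814123 (minus) and Alas2 at chrX:150547217-150547416 (plus):
Hba-a1: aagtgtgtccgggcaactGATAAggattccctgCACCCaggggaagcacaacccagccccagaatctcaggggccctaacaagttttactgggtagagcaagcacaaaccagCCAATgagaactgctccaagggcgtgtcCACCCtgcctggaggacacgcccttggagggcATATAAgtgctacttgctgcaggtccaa
Hbb-bs: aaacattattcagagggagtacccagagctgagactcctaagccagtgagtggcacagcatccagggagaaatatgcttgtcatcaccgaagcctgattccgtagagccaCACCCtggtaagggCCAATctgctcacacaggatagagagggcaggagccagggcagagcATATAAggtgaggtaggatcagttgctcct
Hbb-bt: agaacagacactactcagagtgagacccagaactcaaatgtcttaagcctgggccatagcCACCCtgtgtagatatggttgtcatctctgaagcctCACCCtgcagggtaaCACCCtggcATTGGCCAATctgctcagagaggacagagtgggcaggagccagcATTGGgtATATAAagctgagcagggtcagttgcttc
Alas2: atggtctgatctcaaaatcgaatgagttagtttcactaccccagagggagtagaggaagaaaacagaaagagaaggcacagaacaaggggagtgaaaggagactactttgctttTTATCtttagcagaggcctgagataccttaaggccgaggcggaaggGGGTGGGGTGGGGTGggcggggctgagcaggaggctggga

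All 4 globin windows, that of Hba-a2 included, hold the first of these motifs and both boxes that follow, which 0.794% of 32851 RefSeq promoters of the same length hold together. Singly, 45.5% hold CACCC, 29.3% CCAAT, 7.30% ATATAA and 18.1% GATAA. The ATATAA match begins 28 to 31 bases before the start in the globins. Both alpha windows also hold GATAA, and all 4 motifs occur together in 0.219% of promoters. The Alas2 window holds CACCC at 3 places and GATAA at 1, each read on the other strand, and neither of the other motifs. The windows of Hba-a1 and Hba-a2 align over 197 bases with 0 mismatches, offset by the place of the start. Those of Hbb-bs and Hbb-bt align with 150 identical bases, 37 mismatches and 26 gap positions, so the printed beta windows differ more than the beta coding sequences do. A match of this kind is a description of letters, not a measured binding site.

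The libraries had sums of 23520223 to 33393950 normalized counts, which the low values put at approximately 21700000 to 32400000 reads. Dock3, the check of the labels, had 169, 161 and 118 normalized counts in WT 1, 3 and 4, against 22.4, 1.78 and 1.54 in Dock3 KO 1, 2 and 3 (limma adjusted p 0.0140). Dock3 KO 1 stands apart from the other Dock3 KO libraries in this check. It and Dock3 KO 2 also differ from the other 4 libraries in the share of Gm42418 and Lars2, which together took 17.9% and 20.3% of their sums and 3.00% to 3.64% of the others. Of 16031 genes tested, 1.03% passed the threshold, 10.5% had an unadjusted p under 0.05 and 16.2% had groups that did not overlap. The tissue label was checked with 11 skeletal muscle fibre markers, whose summed level was 1448530 to 1695150 normalized counts per library. Acta1, the skeletal muscle actin, stood at 273298 to 375619.

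Hba-a1 had 9526, 6585 and 14889 normalized counts in WT 1, 3 and 4, against 17691, 7593 and 8041 in Dock3 KO 1, 2 and 3. Dock3 KO 1 was highest and WT 4 next, and Dock3 KO 2 and 3 lay below WT 1, so the groups overlapped. WT averaged 10334 ± 4211 and Dock3 KO 11108 ± 5705 (SD, n = 3 each). The difference, on the log2(normalized count + 1) scale used for all differences here, was 0.070 with a standard error of 0.350 and a 95% interval of -0.71 to 0.85 (limma adjusted p 0.975). Its sign depended on single libraries: it was -0.32 without Dock3 KO 1 and -0.22 without WT 3.

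Hba-a2 had 13972, 9591 and 18577 normalized counts in WT 1, 3 and 4, against 33327, 15776 and 12469 in Dock3 KO 1, 2 and 3. Dock3 KO 1 lay above all others, while Dock3 KO 2 and 3 lay within the WT range. WT averaged 14047 ± 4494 and Dock3 KO 20524 ± 11210 (SD, n = 3 each). On the log2 scale the difference was 0.47 ± 0.345 (standard error; 95% interval -0.30 to 1.24, limma adjusted p 0.722). Without Dock3 KO 1 it was 0.049, and without WT 3 it was 0.22. The summed alpha pair was 16176 to 33466 normalized counts in WT and 20511 to 51018 in Dock3 KO.

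Hbb-bs, the more abundant beta gene, had 14936, 10772 and 19107 normalized counts in WT 1, 3 and 4, against 40928, 20168 and 14343 in Dock3 KO 1, 2 and 3. Dock3 KO 1 and 2 lay above the WT range and Dock3 KO 3 within it. WT averaged 14938 ± 4167 and Dock3 KO 25146 ± 13974 (SD, n = 3 each). On the log2 scale the difference was 0.65 ± 0.344 (standard error; 95% interval -0.12 to 1.42, limma adjusted p 0.574). Without Dock3 KO 1 it was 0.23, and without Dock3 KO 3 it was 0.98.

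Hbb-bt had 1519, 1208 and 1683 normalized counts in WT 1, 3 and 4, against 4395, 2012 and 1536 in Dock3 KO 1, 2 and 3. The order was as for Hbb-bs at the top, with Dock3 KO 1 and 2 above the WT range and Dock3 KO 3 just above WT 1. WT averaged 1470 ± 241 and Dock3 KO 2648 ± 1532 (SD, n = 3 each). Its log2 difference was the largest among the members, 0.71 with a standard error of 0.323 (95% interval -0.0080 to 1.43, limma unadjusted p 0.0521 and adjusted p 0.484). It was 0.27 without Dock3 KO 1.

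Alas2 had 546, 386 and 660 normalized counts in WT 1, 3 and 4, against 1313, 705 and 561 in Dock3 KO 1, 2 and 3. Its libraries stood in the same order as those of Hbb-bt. WT averaged 531 ± 138 and Dock3 KO 859 ± 399 (SD, n = 3 each). On the log2 scale the difference was 0.63 ± 0.301 (standard error; 95% interval -0.039 to 1.30, limma adjusted p 0.508). Without Dock3 KO 1 it was 0.28.

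Slc4a1 had 31.9, 26.2 and 50.0 normalized counts in WT 1, 3 and 4, against 92.4, 43.7 and 38.4 in Dock3 KO 1, 2 and 3. Only Dock3 KO 1 lay outside the WT range. These values stand for approximately 28.6 to 65.9 reads a library, so Slc4a1 is the least precisely measured of the members. WT averaged 36.1 ± 12.5 and Dock3 KO 58.1 ± 29.7 (SD, n = 3 each). On the log2 scale the difference was 0.62 ± 0.408 (standard error; 95% interval -0.29 to 1.53, limma adjusted p 0.678). Without Dock3 KO 1 it was 0.23.

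Across the members, 0 of 6 passed the threshold, 0 of 6 had an unadjusted limma p under 0.05 and 0 of 6 had groups that did not overlap, where 1.03%, 10.5% and 16.2% of all genes did. The exact two-sided permutation test of each member's values gave p of 0.2 to 0.9, and 3 against 3 samples cannot give less than 0.1. The intervals leave room for a difference in either direction for every member, and their upper ends lie at 0.85 to 1.53 on the log2 scale. All 6 differences lay above 0, with a median of 0.62 beside -0.0073 over all genes tested, but the members share the same libraries and are not independent. With Dock3 KO 1 and 2 both left out, which leaves 1 Dock3 KO library with an assumed spread like that of WT, the differences of Hba-a1, Hba-a2 and Hbb-bs were -0.28, -0.12 and -0.020, and those of Hbb-bt, Alas2 and Slc4a1 were 0.077, 0.11 and 0.14. In bulk muscle, a change in red cell number and a change in RNA per red cell cannot be told apart. A different amount of blood left in the tissue cannot be separated from either.

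**Figure D1:**
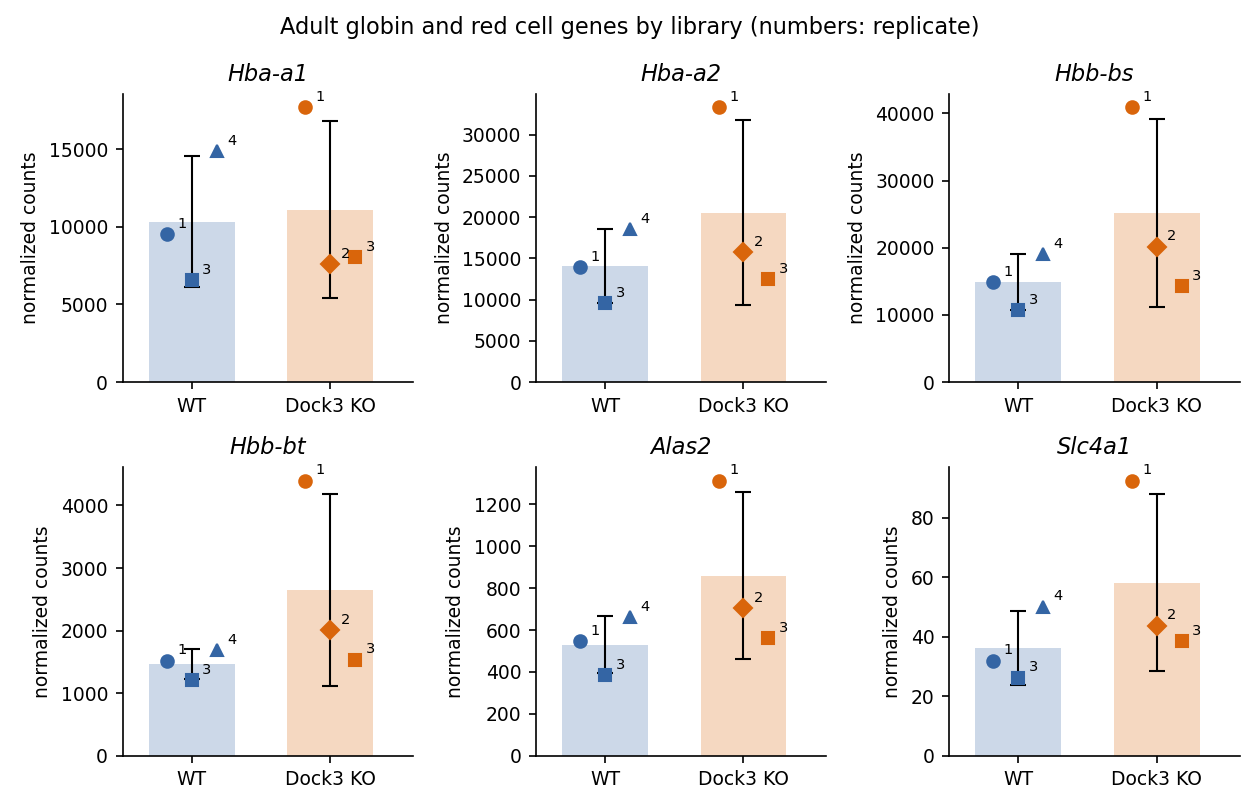
Normalized counts (linear axes from 0) of the 6 genes in each library, with bars for group means and error bars for the SD (n = 3 each), and numbers naming the replicate. Dock3 KO 1 is the highest point and WT 3 the lowest in all 6 panels, and the groups overlap in each.

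As a share of each library's summed normalized counts, the 4 globins together took 0.159%, 0.1197% and 0.205% in WT 1, 3 and 4 and 0.288%, 0.138% and 0.145% in Dock3 KO 1, 2 and 3. On this scale Dock3 KO 2 and 3 lay within the WT range and Dock3 KO 1 above it. Because Gm42418 and Lars2 swell the sums of Dock3 KO 1 and 2, the shares were also taken without them, and were then 0.351%, 0.173% and 0.150% in Dock3 KO 1, 2 and 3 and 0.124% to 0.211% in WT. This moved the place of Dock3 KO 2, from below to above WT 1 and Dock3 KO 3, and Dock3 KO 1 was highest on both scales.

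Levels of different genes were set side by side per kilobase of transcript. In WT, the means were 25355 ± 8111 normalized counts per kilobase for Hba-a2, 23787 ± 6636 for Hbb-bs, 14783 ± 6024 for Hba-a1, 2091 ± 343 for Hbb-bt, 260 ± 67.6 for Alas2 and 7.93 ± 2.74 for Slc4a1 (SD, n = 3 each). Hba-a2, Hbb-bs and Hba-a1 overlapped in their ranges over libraries, while the steps to Hbb-bt, to Alas2 and to Slc4a1 were larger than the spread. In Dock3 KO, the order was Hbb-bs at 40042 ± 22252, Hba-a2 at 37047 ± 20235, Hba-a1 at 15892 ± 8161, Hbb-bt at 3766 ± 2179, Alas2 at 422 ± 196 and Slc4a1 at 12.8 ± 6.54. Each of the 3 Dock3 KO libraries by itself held the order Hbb-bs, Hba-a2, Hba-a1.

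Ratios within a library remove what all members share, the normalization factor included. They were computed after the values of the members had been seen and are given with no test. How often ratios of other genes separate the genotypes was not tested. Per kilobase, Hba-a1 stood to Hba-a2 at 0.540, 0.544 and 0.635 in WT 1, 3 and 4, against 0.421, 0.381 and 0.511 in Dock3 KO 1, 2 and 3. Every Dock3 KO ratio lay below every WT ratio, with means of 0.573 ± 0.0537 and 0.438 ± 0.0665 (SD, n = 3 each). The beta pair stood to the alpha pair at 0.668, 0.706 and 0.599 in WT, against 0.836, 0.889 and 0.736 in Dock3 KO, in the same order of libraries. Here every Dock3 KO ratio lay above every WT ratio, with means of 0.657 ± 0.0545 and 0.820 ± 0.0779 (SD, n = 3 each). Both separations include Dock3 KO 3, which has the ordinary share of Gm42418 and Lars2.

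The second ratio does not rest on Hba-a1 alone. Hbb-bs stood to Hba-a2 at 0.943, 0.991 and 0.907 in WT 1, 3 and 4. The values were 1.08, 1.13 and 1.01 in Dock3 KO 1, 2 and 3, without overlap. Both genes are themselves part of the pairs, so this is not a separate result. The ratio of Slc4a1 to Hbb-bs overlapped between the genotypes. The ratio of the beta genes also overlapped, with Hbb-bt at 0.0787 to 0.1002 of Hbb-bs in WT and 0.0891 to 0.0959 in Dock3 KO. Alas2 stood at 0.0106 to 0.0113 of Hbb-bs in WT and 0.00989 to 0.0121 in Dock3 KO, overlapping, although Hbb-bs itself spanned 3.80-fold over the libraries and this ratio only 1.219-fold. Since Hba-a1 and Hba-a2 share nearly all of their coding sequence, the part that read assignment has in the first ratio was not tested. Transcript lengths set the level of a ratio of single genes but not its comparison between libraries, while in the ratio of the pairs they also weight the genes of each pair.

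**Figure D2:**
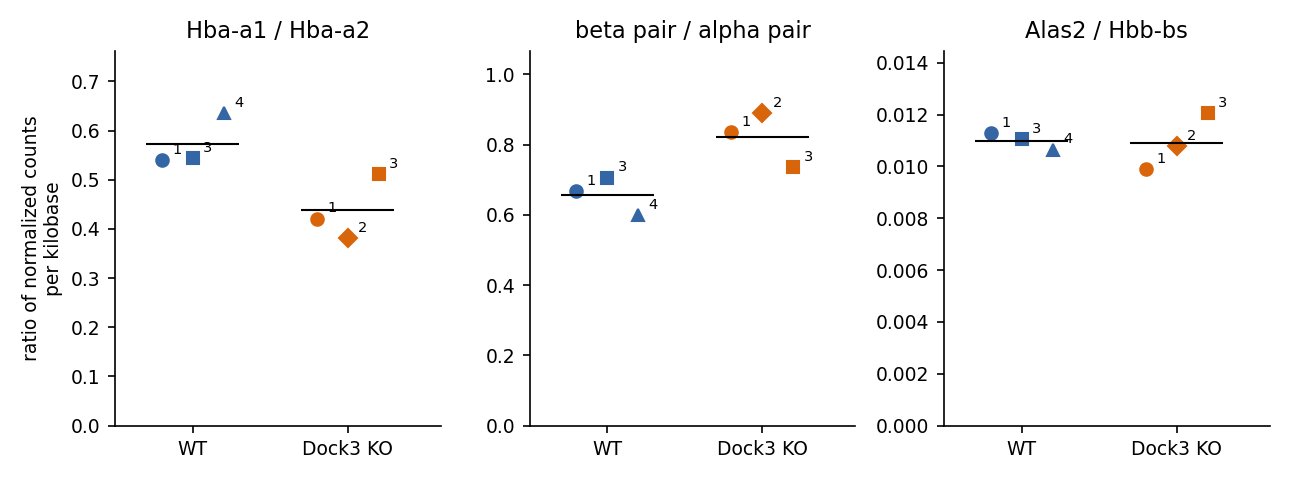
Ratios of normalized counts per kilobase in each library (linear axes from 0), with lines for group means and numbers naming the replicate. Hba-a1 to Hba-a2 (means 0.573 in WT and 0.438 in Dock3 KO) and the beta pair to the alpha pair (0.657 and 0.820) do not overlap between genotypes, while Alas2 to Hbb-bs does.

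The members varied together across the 6 libraries. Over the 15 pairs of members, Pearson's r of the log2 values was 0.739 to 0.995 (exact two-sided permutation p of 0.00139 to 0.0597, Benjamini-Hochberg adjusted 0.00926 to 0.0597). Spearman's rho was 0.6 to 1 (exact permutation p of 0.00278 to 0.242, adjusted 0.0357 to 0.242). The highest r was that of Hbb-bs with Alas2, 0.995, genes on different chromosomes that share no 31-base stretch. Leaving out the pair of libraries farthest from the median, WT 3 and Dock3 KO 1, left it at 0.979.

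Hba-a1 was the loosest member. Its 5 pairs gave r of 0.739 to 0.899, and 0.273 to 0.618 once WT 4 and Dock3 KO 1 were left out, so these relations rest on those libraries. The other 10 pairs gave 0.949 to 0.995, and 0.499 to 0.979 without WT 3 and Dock3 KO 1. The lowest of these were Hba-a2 with Hbb-bt at 0.499 and Hbb-bt with Slc4a1 at 0.571. The normalization factor of a library enters every member alike, and its part in these relations was not tested. The part of reads that fit both genes of the alpha pair, or both of the beta pair, was not tested either. The libraries with a high share of Gm42418 and Lars2 number 2, too few for a value of their own.

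**Figure D3:**
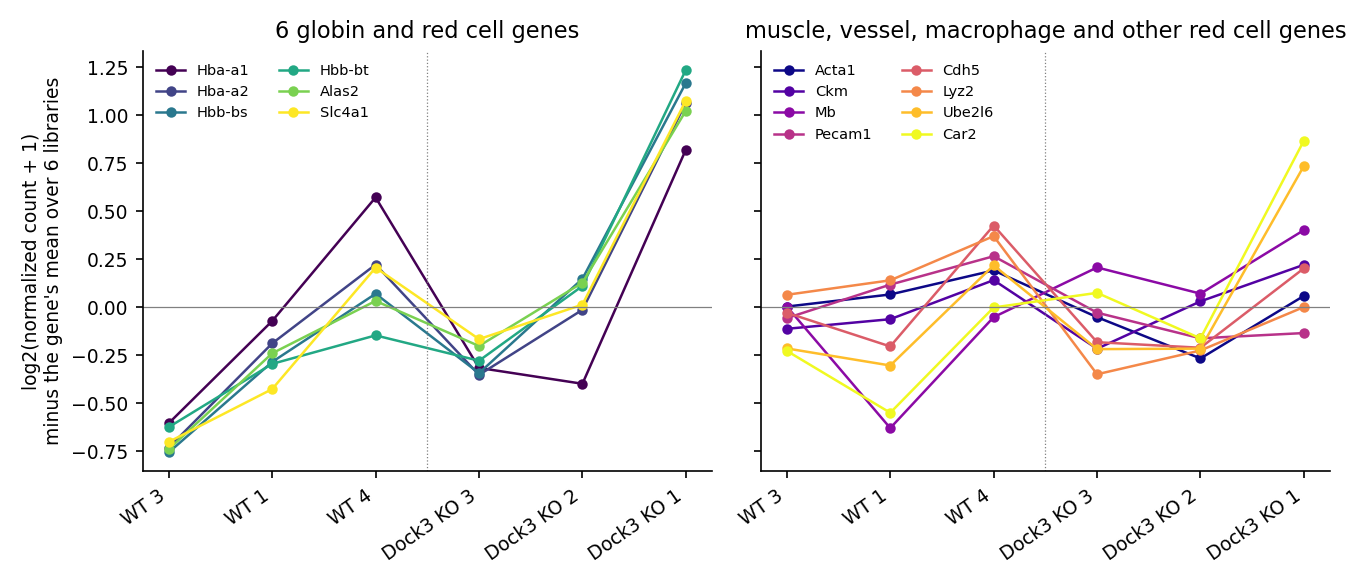
Log2(normalized count + 1) minus each gene's mean over the 6 libraries, for the 6 members (left) and for muscle, vessel, macrophage and other red cell genes (right); lines only join the points of a gene. The members reach their highest point in Dock3 KO 1 and their lowest in WT 3. On the right, the muscle gene Ckm and Mb, Ube2l6 and Car2 are also highest in Dock3 KO 1. Of these, Ckm is lowest in Dock3 KO 3, and Mb, Ube2l6 and Car2 are lowest in WT 1. Acta1, Pecam1, Cdh5 and Lyz2 are highest in WT 4.

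To find genes with the same profile, every other gene tested was set against the mean log2 value of the 4 globins over the 6 libraries, as a description with no p. Among the closest 10 were Atcayos (r = 0.995), Ei24 (0.994), Gm11960 (0.991), Fam49a (0.986), Car8 (0.974), Pum3 (0.973), 2010320M18Rik (0.972) and F2rl3 (0.969). Of 16031 genes, 31 reached r of 0.95 and 105 reached 0.9, members included. Among all genes Hba-a2 ranked 1, Hbb-bs 5, Alas2 7, Slc4a1 8, Hbb-bt 22 and Hba-a1 122, the globins being part of the mean. Alas2 and Slc4a1, which are not part of it, reached 0.980 each. These genes spanned less than the globins: Ei24 ranged from 1287 to 1592 normalized counts and Fam49a from 218 to 393.

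Other genes of red cells were read from 4 lists, with the members left out: heme synthesis, red cell membrane, red cell cytosol and maturation, and erythroid transcription and receptors. Of 62 listed genes, 45 were tested. With limma, 0 of the 45 passed the threshold and 8 had an unadjusted p under 0.05, beside 1.03% and 10.5% of all genes tested. Groups did not overlap for 12 of the 45, 8 higher and 4 lower in Dock3 KO, beside 16.2% of all genes. The log2 difference lay above 0 for 31 of the 45 and had a median of 0.13, beside -0.0073 over all genes tested. Many genes of these lists are also expressed by muscle fibres or vessels, so the lists do not measure red cells alone.

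In the heme synthesis list, Alas2 left out, 9 of 14 differences lay above 0, with a median of 0.15. Fech, the enzyme that puts iron into heme, had 2600, 2586 and 3076 normalized counts in WT 1, 3 and 4, against 3050, 3113 and 3076 in Dock3 KO 1, 2 and 3 (log2 difference 0.17, limma adjusted p 0.716). Alas1, the form of the first enzyme used outside red cells, ranged from 1098 to 1384 in WT and from 956 to 1339 in Dock3 KO (log2 difference -0.090, limma adjusted p 0.914). Alas1 therefore did not share the high value of Alas2 in Dock3 KO 1, where it was at its lowest.

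In the red cell membrane list, 11 of 17 genes were tested and 9 differences lay above 0, with a median of 0.067. The most abundant were Ank1, an ankyrin that also occurs in muscle, at 4438 to 5433 normalized counts in WT and 4691 to 6368 in Dock3 KO (limma adjusted p 0.878), and Aqp1, a water channel of red cells and vessels, at 4411 to 6990 and 3608 to 4478 (limma adjusted p 0.546).

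In the list of red cell cytosol and maturation, 19 of 20 listed genes were in the table, 15 were tested and 12 differences lay above 0, with a median of 0.20. The most abundant were Cpeb4, a translation regulator of late erythroid cells, at 2413 to 2688 normalized counts in WT and 2695 to 3070 in Dock3 KO (limma adjusted p 0.651), and Prdx2, a peroxide-removing enzyme, at 1797 to 1894 and 1295 to 1638 (limma adjusted p 0.304). Neither passed, although the groups did not overlap for either, with Cpeb4 higher and Prdx2 lower in Dock3 KO. Blvrb, biliverdin reductase B, named after its values were seen, came nearest to the threshold. It was listed at 169, 224 and 292 in WT 1, 3 and 4, against 109, 72.8 and 97.1 in Dock3 KO 1, 2 and 3, which gives -1.27 ± 0.253 on the log2 scale (standard error; limma adjusted p 0.0525). The Blvrb difference had the opposite sign to those of the globins, with all Dock3 KO values below the WT values. Within each genotype Blvrb was highest where the globins were, in WT 4 and Dock3 KO 1. Its r to the mean of the globins over the 6 libraries was -0.22.

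A pair of genes of this list, named after their values were seen, was also highest in Dock3 KO 1. Ube2l6, a ubiquitin-conjugating enzyme, reached r = 0.920 to the mean of the globins, with 375 normalized counts in Dock3 KO 1 and 182 to 262 in the other 5 libraries. Car2, a carbonic anhydrase, stood at 263 in Dock3 KO 1 and at 97.6 to 151 in the others.

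Genes of nucleated red cell precursors were near the floor. Gata1 had 2.67, 3.28 and 1.65 normalized counts in WT 1, 3 and 4, against 0 in all Dock3 KO libraries, and Klf1 had 1.71 to 2.55 in WT and 0 to 1.46 in Dock3 KO. These stand for a few reads a library or none, and no difference can be read from them. Of the 11 genes of erythroid transcription and receptors, 5 were tested and 1 difference lay above 0, with a median of -0.087. It was that of Tfrc, the transferrin receptor, at 1490 to 2350 in WT and 1835 to 2309 in Dock3 KO (limma adjusted p 0.677). Ldb1, a cofactor of Gata1 used in many cells, stood at 344 to 413 and 340 to 359 (limma adjusted p 0.910).

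**Figure D4:**
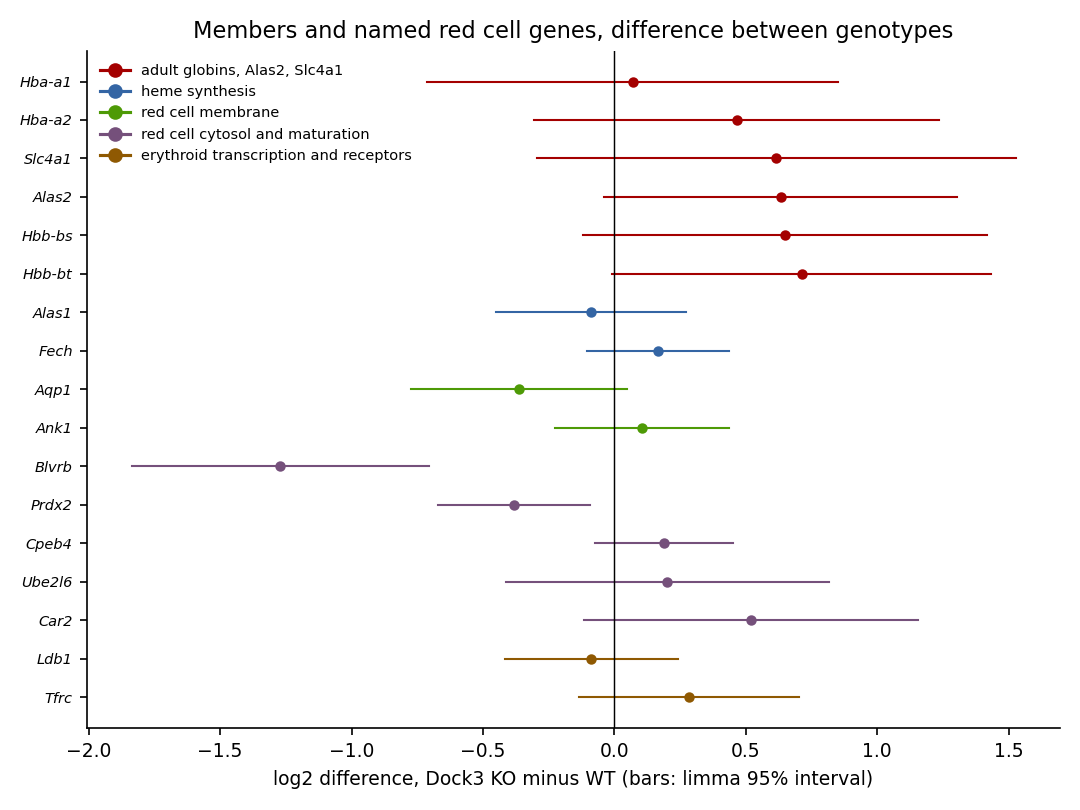
Log2 difference, Dock3 KO minus WT, with its 95% limma interval, for the members and for the genes of the 4 red cell lists named in the text. The points of the members lie between 0.070 and 0.71 with intervals that include 0; Blvrb at -1.27 lies farthest from 0, and no gene shown passed the threshold.

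The embryonic beta-like genes Hbb-bh0, Hbb-bh1, Hbb-bh2 and Hbb-y were listed at 0 in all 6 libraries, and Hba-x above 0 only in WT 4, at 4.12 normalized counts. Beside the alpha globins on chromosome 11, Nprl3, whose introns hold the enhancers of the alpha cluster, was listed at 256 to 272 in WT and 252 to 299 in Dock3 KO (log2 difference 0.00095, limma adjusted p 0.999). Rhbdf1 stood at 346 to 581 and 343 to 476 (log2 difference -0.20, limma adjusted p 0.832). Of the 4 genes tested in this list of 12, 1 difference lay above 0. The globins outside red cells did not follow the members: Mb, the myoglobin of muscle fibres, was listed at 19805, 30724 and 29570 in WT 1, 3 and 4, against 40497, 32190 and 35386 in Dock3 KO 1, 2 and 3 (log2 difference 0.45, limma adjusted p 0.445). Its groups did not overlap, and WT 1, not WT 3, was lowest. Cygb, cytoglobin, stood at 413 to 522 and 319 to 467 (limma adjusted p 0.617).

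Genes that handle released hemoglobin, heme and iron showed no call either, with 12 of 13 tested, 7 differences above 0 and a median of 0.11. Fth1, the ferritin heavy chain, stood at 19959 to 21079 normalized counts in WT and 17402 to 25272 in Dock3 KO (limma adjusted p 0.918), and Lrp1, a receptor that takes up hemopexin with heme, at 6289 to 8049 and 7262 to 9948 (limma adjusted p 0.689). Slc40a1, the iron exporter ferroportin, and Trf, transferrin, were named after their values were seen. Slc40a1 was listed at 536, 381 and 491 in WT 1, 3 and 4, against 648, 668 and 659 in Dock3 KO 1, 2 and 3 (log2 difference 0.50, limma adjusted p 0.254). Trf was listed at 589, 397 and 418 and at 712, 655 and 890 in the same order (log2 difference 0.69, limma adjusted p 0.177). For both, all Dock3 KO values lay above the WT values. The other gene of this list whose groups did not overlap, Hmox2, a heme oxygenase, also named after its values were seen, lay the opposite way. It had 543, 618 and 619 normalized counts in WT 1, 3 and 4, against 531, 455 and 437 in Dock3 KO 1, 2 and 3 (log2 difference -0.32, limma adjusted p 0.472).

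Markers of other cells that come with blood or vessels did not separate the libraries as the globins did. The 10 platelet markers, 5 of them tested, had a summed level of 287 to 354 normalized counts in WT and 215 to 333 in Dock3 KO. The most abundant, Pf4, stood at 203 to 246 and 148 to 241 (limma adjusted p 0.676), and Ppbp at 15.4 to 32.2 and 14.2 to 80.5 (limma adjusted p 0.881). The 10 neutrophil markers, 3 tested, summed to 76.2 to 86.2 and 55.2 to 94.8, with Csf3r at 9.58 to 33.1 and 16.2 to 25.5 (limma adjusted p 0.993), Cxcr2 at 11.7 to 28.9 and 16.5 to 30.96 (limma adjusted p 0.874), and the defining granule genes near 0. Camp was at 0 except for 3.05 in Dock3 KO 2, and Ltf at 0 except for 2.24 in Dock3 KO 1 and 5.73 in Dock3 KO 2. The 10 lymphocyte markers, 4 tested, summed to 503 to 1037 and 214 to 669, mostly from Ighm at 453 to 986 and 171 to 554 (limma adjusted p 0.416), with Ms4a1 at 12.8 to 14.8 and 10.6 to 29.8 (limma adjusted p 0.814).

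The 11 endothelial markers summed to 6463 to 8518 normalized counts in WT and 6368 to 7857 in Dock3 KO, with 2 of 11 differences above 0. Pecam1, a junction protein of vessels, stood at 1297 to 1622 and 1205 to 1322 (limma adjusted p 0.631), and Cdh5 at 1053 to 1630 and 1048 to 1396 (limma adjusted p 0.885). The 8 markers of macrophages, the cells that clear old red cells, summed to 5784 to 6406 and 4623 to 5715, so that all Dock3 KO sums lay below the WT sums. Of their differences 0 of 8 lay above 0. With limma, 0 of 8 passed and 1 had an unadjusted p under 0.05, beside 1.03% and 10.5% of all genes tested. Lyz2, a lysozyme, stood at 2124 to 2625 and 1593 to 2032 (limma adjusted p 0.348) and Csf1r at 966 to 1429 and 686 to 1096 (limma adjusted p 0.593). Of the 11 muscle fibre markers 6 lay above 0, and Myh4, the fast myosin heavy chain, stood at 351120 to 480295 and 397414 to 552974 (limma adjusted p 0.879). Dock3 KO 1, the library highest in all members, did not hold the highest platelet, neutrophil, lymphocyte, macrophage or endothelial sum, and it did hold the highest muscle fibre sum. The part of these other cells in the levels of the members was not tested.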

How the data were processed

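RNA was sequenced from 3 WT and 3 Dock3 KO tibialis anterior muscles, as stranded, paired-end libraries depleted of ribosomal RNA, per the labels' protocols. The authors deposited 1 table of normalized counts, a signal for each gene rather than whole reads: 24.7% to 44.3% of a library's low values were whole multiples of its most frequent low value, within 0.02 reads. The submitters' processing notes name Trim Galore 0.4.5, Salmon 0.12.0, DESeq2 1.22.1, R 3.5.3 and GRCm38, with no role or order. The counting of strand and of reads shared by near-identical genes is not given in the sources used here.

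All 54393 gene identifiers matched GENCODE M21. Genotypes came from the genotype label and replicate numbers from the titles. Values were taken as log2(normalized count + 1), genes with a mean of at least 10 were kept (16031), and the genotypes were compared over all 6 libraries with limma 3.58.1 in R 4.3.3 (prior variance following mean expression, no covariates). P-values were Benjamini-Hochberg adjusted over all genes tested, with a threshold of 0.05. The steps were tested on simulated data. Exact permutation tests, ratios and motif searches used Python 3.11.15 with scipy 1.17.1. Per-kilobase values use the first protein-coding transcript of each gene in GENCODE M21, and promoters are RefSeq's on GRCm38.p6. Reads per library are estimates from the low values, so no counting interval is given.

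The 6 genes, the lists and the ratios were chosen with earlier results of these data known. Besides the members, the text names of each of 13 lists the genes past the threshold or otherwise its 2 most abundant, the 10 genes closest in profile to the globins, Dock3, Gm42418 and Lars2; others are marked. Of the listed genes, 1 was not analysed here. Some genes that this rule names are not reported here. Alternatives were pseudocounts of 0.1 and 10, no filter and a minimum mean of 50, other scalings, other prior variances, log2 Gm42418 as a covariate, the replicate block, and each library left out; leaving out Dock3 KO 1 and 2 together was chosen after seeing the data.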

Additional observations from a re-analysis of the deposited data

How the results depend on the processing

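No member passed the threshold in any of 18 alternatives, with limma adjusted p of 0.167 to 0.997 over 107 fits; a minimum mean of 50 leaves out Slc4a1. The sign of Hba-a1 turned to -0.21 when rescaled to the same total, -0.032 when rescaled without Gm42418, Lars2 and globins, -0.027 with quantile normalization and -0.32 with log2 Gm42418 as a covariate. With that covariate Hba-a2 was -0.19 and Hbb-bs -0.095. With Dock3 KO 1 and 2 left out, Hba-a1, Hba-a2 and Hbb-bs were -0.28, -0.12 and -0.020. The causes were not tested, and other members were above 0 throughout. With 1 library left out in turn, Hba-a1 ranged from -0.32 to 0.37, Hba-a2 from 0.049 to 0.76, Hbb-bs from 0.23 to 0.98, Hbb-bt from 0.27 to 1.03, Alas2 from 0.28 to 0.89 and Slc4a1 from 0.23 to 0.87.

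The difference of the globin share, 0.0291 percentage points, ranged from -0.0199 (without Dock3 KO 1) to 0.0553 with 1 library left out, was 0.00835 without WT 3, and was 0.0581 with Gm42418 and Lars2 left out of the total. Of the other red cell genes, 1 (Blvrb) passed with no filter (limma adjusted p 0.0236), rescaled to the same total (0.0187) or without Gm42418, Lars2 and globins (0.0306), with a robust prior variance (0.0371) and without WT 1 (0.0391), so that leaving out 1 library gave 0 to 1. Over its alternatives the Blvrb adjusted p ran from 0.0187 to 0.553.

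Against 165 genes in all, a prior variance without trend gave 104, the covariate 57, Dock3 KO 1 and 2 left out 56, and 1 library left out 100 to 159. Rescaling to the same total moved the median of all genes from -0.0073 to -0.28 and the share of calls that were higher from 43.0% to 23.2%, and to 32.3% without Gm42418, Lars2 and globins; relative to that median Hba-a1 lay above 0 in both. The replicate block gave 127 genes, 0 members, and 0.59, 0.82, 0.93, 0.94, 0.90 and 1.02 for Hba-a1, Hba-a2, Hbb-bs, Hbb-bt, Alas2 and Slc4a1. Only the numbers 1 and 3 occur in both genotypes, so WT 4 and Dock3 KO 2 add nothing to these differences. The same-numbered libraries correlated at 0.065 (number 1) and 0.0066 (number 3), too few pairs to tell whether the numbers pair the libraries.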
